A study of Mus musculus with 12 samples.

Results

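The second phase of activation was followed in Ddx55-knockout (KO) T cells of the mouse, by setting KO libraries taken after 24 h of stimulation against KO libraries taken after 8 h. All columns of the gene and repeat count tables with this genotype and 1 of these times were taken, 4 libraries of the 12 in the series and 2 per time. The cells were naive CD4+ T cells purified from spleen and pLN. They lay on plates coated with 2 antibodies, anti-CD3 at 5 ug/ml against the antigen receptor complex and, against a costimulatory receptor, anti-CD28 at 2.5 ug/ml. KO and wild-type (WT) cells were treated alike, and the remaining groups are KO at 0 h and WT at 24 h, 8 h and 0 h, with 2 libraries each. The sources used here do not say how the Ddx55 allele was made or which part of the gene it lacks. Whether libraries within a group derive from different animals or cultures is also unstated, so p-values measure only the spread between these libraries, which may be technical.

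A naive T cell that meets antigen first switches on immediate early genes and then grows, building ribosomes and making sterols and nucleotides. About a day later it copies its DNA and divides. E2F factors drive genes of DNA replication, and the MuvB complex with B-Myb and FoxM1 drives those of mitosis, while p53 can hold a cell before replication through Cdkn1a, an inhibitor of cyclin-dependent kinases. Ddx55 is an RNA helicase whose human counterpart takes part in assembling the large ribosomal subunit.

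Levels are given in CPM (counts scaled to a library total of 1e6 after TMM normalisation). Changes are log2 fold changes of an edgeR quasi-likelihood fit, 24 h over 8 h. The fit gives no SE, so the value after ± is the absolute change divided by the square root of its test statistic F. A gene is said to have risen or fallen only where its Benjamini-Hochberg adjusted p was under 0.05 over the 15679 genes tested. The KO libraries held 18543427 and 18289329 gene counts at 24 h, and 18076735 and 17644725 at 8 h. Ddx55 itself had 14.7 and 14.4 CPM in KO cells at 24 h and 17.95 and 17.1 CPM at 8 h, against 52.9 and 55.2 CPM in WT cells at 24 h and 68.7 and 64.1 CPM at 8 h. KO and WT libraries did not overlap, and reads of Ddx55 were still counted in KO cells. Cd4, which defines the purified cells, had 499 and 496 CPM in KO cells at 24 h, against 260.0 and 277 CPM at 8 h. Most T cell identity genes did not rise with it, as 12 of 21 fell and 5 rose. These 21 genes summed to 8550.2 and 8318.7 CPM in KO cells at 24 h, against 11072.2 and 10592.6 CPM at 8 h. The 20 basophil and mast cell markers summed to 235.0 and 847.4 CPM in KO cells at 24 h and 176.8 and 539.8 CPM at 8 h, and to at most 23.7 CPM in any WT library at these times. The KO library numbered 2 was the higher at both times. Mcpt8, a basophil protease looked up after the sums were seen, had 57.03 and 226 CPM in KO cells at 24 h, against 33.99 and 125 CPM at 8 h, a change that did not pass (edgeR adjusted p = 0.55). Markers of several further cell types, but not of all that were summed, were also higher in KO than in WT libraries. The 20 markers of neutrophils and granulocyte progenitors summed to 26.9 and 103.4 CPM in KO cells at 24 h and 21.8 and 52.5 CPM at 8 h, against 1.2 and 1.1 CPM in WT cells at 24 h and 2.5 and 2.3 CPM at 8 h. The 9 eosinophil markers summed to 31.6 and 106.5 CPM in KO cells at 24 h and 43.4 and 36.9 CPM at 8 h, against 1.5 and 0.3 CPM in WT cells at 24 h and 3.5 and 1.3 CPM at 8 h. The T cell receptor gamma delta genes summed to 19.7 and 17.8 CPM in KO cells at 24 h and 22.8 and 16.6 CPM at 8 h, against 3.0 and 2.3 CPM in WT cells at 24 h and 5.7 and 6.3 CPM at 8 h. Myeloid markers summed to 78.1 and 81.1 CPM in KO cells at 24 h and 92.5 and 71.5 CPM at 8 h. WT cells had 44.0 and 47.3 CPM at 24 h and 52.2 and 50.5 CPM at 8 h. Regulatory T cell markers summed to 1642.1 and 1632.2 CPM in KO cells at 24 h and 1363.1 and 1369.4 CPM at 8 h. In WT cells they had 1047.3 and 1139.9 CPM at 24 h and 1087.7 and 1171.5 CPM at 8 h. At 0 h they summed to 234.5 and 250.3 CPM in KO cells and 207.3 and 185.1 CPM in WT cells. Foxp3, their defining factor, was a small part of these sums. At 24 h it had 10.9 and 13.96 CPM in KO cells and 12.9 and 13.4 CPM in WT cells, which overlapped. Except for T cell identity genes, every KO library lay above every WT library in each of these sums at 24 h and 8 h. The part of such cells in the results below was not tested, and in bulk RNA fewer cells of a type and less RNA per cell cannot be told apart.

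From 8 h to 24 h, 5397 genes changed in KO cells, 34.4% of those tested. Of these, 2956 (18.9%) rose and 2441 (15.6%) fell. Counts of list members below are to be read beside these shares, and some lay near them. The change was at least 2-fold for 1161 (7.40%) that rose and 750 (4.78%) that fell. The median change over all tested genes was 0.02. Both 24 h libraries lay above both 8 h libraries for 34.8% of genes and below them for 32.7%. Of 12398 protein-coding genes 22.6% rose and 17.0% fell.

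The genes that rose most among those the naming rule admits encode signalling proteins, transporters and receptors. Adm, which encodes the vasoactive peptide adrenomedullin, had 21.03 and 10.7 CPM in KO cells at 24 h, against 0.226 and 0.1104 CPM at 8 h (6.51 ± 0.64, edgeR adjusted p = 8.6e-06). Its 8 h level rests on 6 counts. Slc4a11, a membrane transporter, had 35.7 and 52.03 CPM in KO cells at 24 h, against 0.7904 and 0.718 CPM at 8 h (5.85 ± 0.41, edgeR adjusted p = 9.7e-07). Both were near the counting limit at 8 h and stood well above it in each 24 h library. Cd70, the ligand of the costimulatory receptor CD27, had 6.700 and 5.34 CPM in KO cells at 24 h, against 0.226 and 0.276 CPM at 8 h (4.55 ± 0.54, edgeR adjusted p = 4.3e-05). Socs2, a feedback inhibitor of cytokine signalling, had 37.9 and 41.6 CPM in KO cells at 24 h, against 2.26 and 1.32 CPM at 8 h (4.47 ± 0.27, edgeR adjusted p = 1.0e-07). Ccr6, a chemokine receptor of some helper T cells, had 6.101 and 8.41 CPM in KO cells at 24 h, against 0.282 and 0.1104 CPM at 8 h, with 7 counts at 8 h in all (5.17 ± 0.51, edgeR adjusted p = 5.8e-06). Fam129a was the most abundant of the group and had counts well above the limit at both times. It had 310.2 and 282 CPM in KO cells at 24 h, against 22.5 and 26.8 CPM at 8 h (3.59 ± 0.19, edgeR adjusted p = 1.8e-07). Sspo, Dnm1, Pros1, Pla2g4f, Dact3, Ak1, Gprin3, Atg9b and Nebl completed the group; all of them rose (log2 changes between 3.56 and 5.76). Sspo, Dnm1, Cd70 and Dact3 had 5, 8, 9 and 16 counts at 8 h.

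The genes that fell most were transcription factors of helper T cells and interferon-inducible genes, among others. Maf, a transcription factor of helper T cells, had 4.303 and 7.87 CPM in KO cells at 24 h, against 52.00 and 61.8 CPM at 8 h (-3.22 ± 0.35, edgeR adjusted p = 0.00013). Bcl6, the repressor that directs follicular helper cells, had 15.5 and 18.8 CPM in KO cells at 24 h, against 119 and 118 CPM at 8 h (-2.79 ± 0.13, edgeR adjusted p = 4.5e-09). At 0 h Maf had 7.38 and 10.9 CPM and Bcl6 had 22.96 and 17.9 CPM, so both peaked at 8 h among the 3 times. Ipcef1, a partner of cytohesins, was the most abundant, with 105 and 117 CPM in KO cells at 24 h, against 740.0 and 821 CPM at 8 h (-2.81 ± 0.15, edgeR adjusted p = 2.6e-08). Interferon-inducible genes of the group were instead highest at 0 h. Ifi213, of a cluster on chromosome 1, had 3.76 and 5.45 CPM in KO cells at 24 h, against 38.3 and 52.4 CPM at 8 h (-3.299 ± 0.31, edgeR adjusted p = 9.7e-05), and 292 and 459 CPM at 0 h. Ifi206, Ifi208 and Ifi214 of that cluster, and Ifit1bl1, also fell (log2 changes between -2.87 and -3.44). These have close relatives, among which the counting could have split reads. Ifi208 did not pass without the 24 h library numbered 1 (edgeR adjusted p = 0.0596). Ramp3, Eml1, Tuba3a, Nmnat2, Evpl, Tox2 and Sytl2 fell (log2 changes between -2.76 and -3.47) as well.

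**Figure D1:**
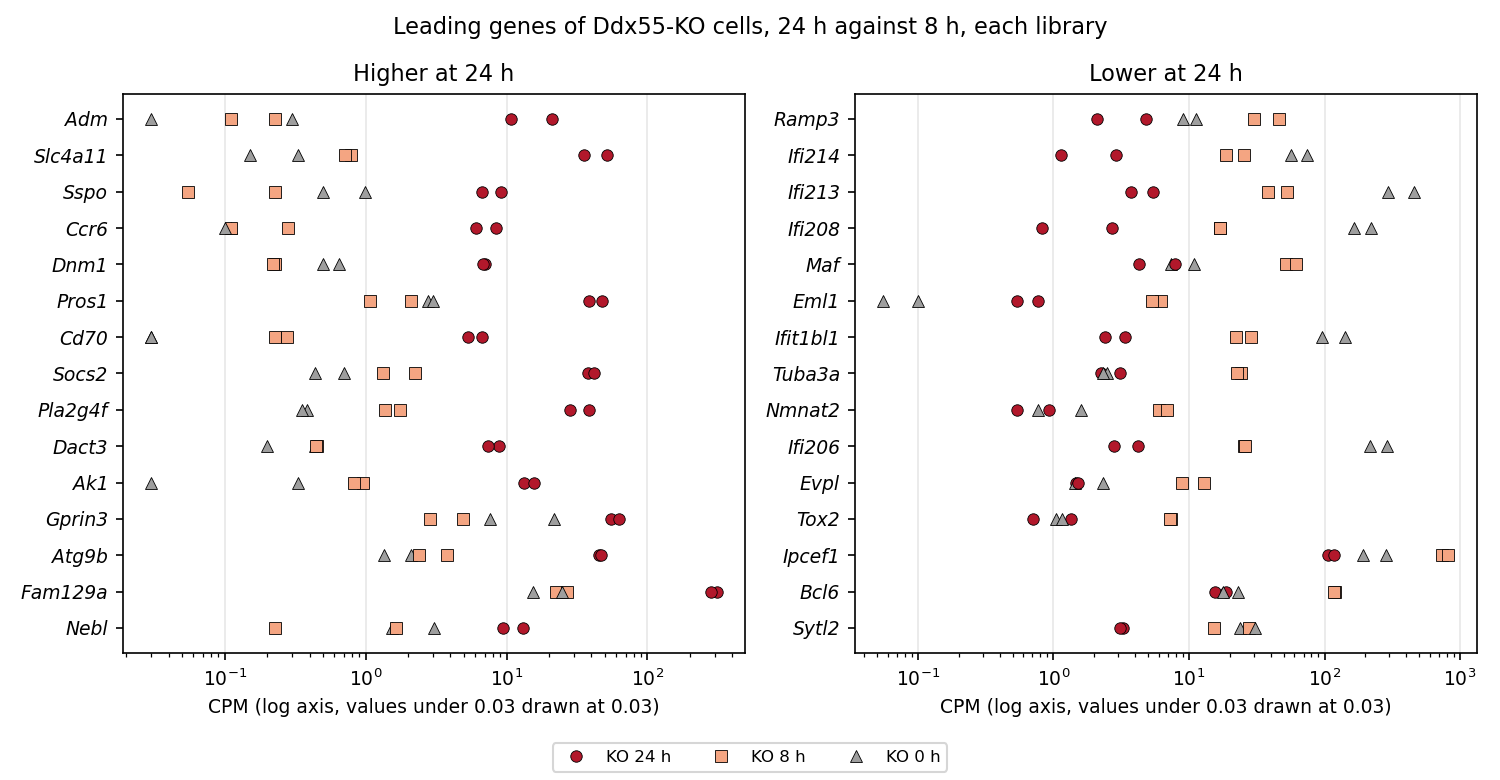
Level in CPM (log axis) of the 15 genes with the largest rise (left panel) and the 15 with the largest fall (right panel) that the naming rule admits, 1 point per library; red circles are KO at 24 h, orange squares KO at 8 h and grey triangles KO at 0 h. The 24 h and 8 h points do not overlap in any line, as the rule requires; Ifi213 is highest at 0 h, with 292 and 459 CPM.

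Most genes of DNA replication and mitosis rose in KO cells, by less than in WT cells. Of 60 tested S phase genes 43 rose and 4 fell, with a median change of 0.67; of 60 G2/M genes 47 rose and 2 fell, with a median of 1.31. Mcm10, which helps to start replication forks, had 7.68 and 7.39 CPM in KO cells at 24 h, against 0.734 and 0.828 CPM at 8 h (3.26 ± 0.20, edgeR adjusted p = 5.6e-08). Uhrf1, which copies DNA methylation onto new strands, had 39.5 and 41.5 CPM in KO cells at 24 h, against 11.1 and 12.5 CPM at 8 h (1.78 ± 0.12, edgeR adjusted p = 1.4e-07). Aurkb, a mitotic kinase, had 5.99 and 9.54 CPM in KO cells at 24 h, against 0.565 and 0.994 CPM at 8 h (3.303 ± 0.31, edgeR adjusted p = 4.5e-06). The 8 h level of each was the lowest of the 3 times, since at 0 h Mcm10 had 5.56 and 6.12, Uhrf1 27.4 and 23.9 and Aurkb 9.196 and 7.62 CPM. Chaf1a, a histone chaperone of replication, Exo1, an exonuclease, Melk, a kinase, Ncapd2, a condensin subunit, and Spc25, of the kinetochore, also rose (log2 changes between 1.31 and 2.85).

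Some members went the other way. Pcna, the sliding clamp of DNA polymerases, had 169.6 and 167 CPM in KO cells at 24 h, against 296 and 269 CPM at 8 h (-0.75 ± 0.13, edgeR adjusted p = 0.0005); a pseudogene copy, Pcna-ps2, could share its reads. Cdt1, which licenses replication origins, Ung, which removes uracil from DNA, and Pole2, a polymerase subunit, also fell (log2 changes between -0.697 and -0.92). Pole2 did not pass without the 8 h library numbered 2 or the 24 h library numbered 1 (edgeR adjusted p between 0.0547 and 0.0699). Kif15, a mitotic kinesin, had 10.3 and 13.3 CPM in KO cells at 24 h, against 78.6 and 57.8 CPM at 8 h (-2.53 ± 0.19, edgeR adjusted p = 1.3e-06), and Cdc25b, an activator of mitotic kinases, fell (-0.898 ± 0.12). Among 27 regulators of the G1/S step 15 rose and 2 fell. Ccne1, the cyclin of replication onset, had 5.77 and 4.42 CPM in KO cells at 24 h, against 2.26 and 1.77 CPM at 8 h (1.34 ± 0.20, edgeR adjusted p = 0.00019). Brakes of the step rose too, the inhibitor Cdkn2c (2.28 ± 0.27) and the pocket protein Rbl2 (1.33 ± 0.15), as did the kinase Cdk6 (1.102 ± 0.13). E2f6 and E2f4, which mainly repress, fell (log2 changes between -0.28 and -0.795). E2f4 did not pass without the 8 h library numbered 1, the 24 h library numbered 1 or the 24 h library numbered 2 (edgeR adjusted p between 0.0942 and 0.109).

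Of 36 replication-dependent histone genes 12 rose, and none passed in the other direction by edgeR, by DESeq2 or at an unadjusted p under 0.05 (0 genes each). No tested member exceeded 5 CPM in these 4 libraries, and the highest was Hist1h1c, a linker histone, with 4.96 and 4.69 CPM in KO cells at 24 h, against 1.13 and 2.59 CPM at 8 h. Without the 24 h library numbered 1, 6 rose. Without the 8 h library numbered 1 the number was 7, and with the 4 KO libraries fitted alone it was 5. Of 38 Fanconi and DNA repair genes 17 rose and 1 fell. The member that fell was Atrip, a partner of the checkpoint kinase ATR (-0.52 ± 0.11).

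The late change of KO cells was set against that of WT cells, which share no library with it. In WT cells 6783 genes (43.3%) changed, 3763 (24.0%) up and 3020 (19.3%) down. The difference of the log2 changes, KO minus WT, passed for 2265 genes (14.4%). It was positive for 860 (5.49%) and negative for 1405 (8.96%), and of at least 2-fold for 1.79% and 4.85%. The S phase list had a negative difference for 60 of 60 genes and a median change of 2.86 in WT cells, where 60 rose. The G2/M list had 56 negative differences and a WT median of 4.74, with 59 risen. Clspn, a mediator of the replication checkpoint, had 5.61 and 7.01 CPM in KO cells at 24 h and 0.508 and 1.21 CPM at 8 h, against 161 and 147 CPM in WT cells at 24 h and 0.496 and 0.293 CPM at 8 h; the difference was -5.72 ± 0.74 (edgeR adjusted p = 0.00056). Kif15 and Cdt1 fell in KO cells and rose in WT cells, by 0.96 and 1.51. The difference was negative for 15 and positive for 2 of the G1/S regulators, and negative for 26 of the Fanconi and repair genes.

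**Figure D2:**
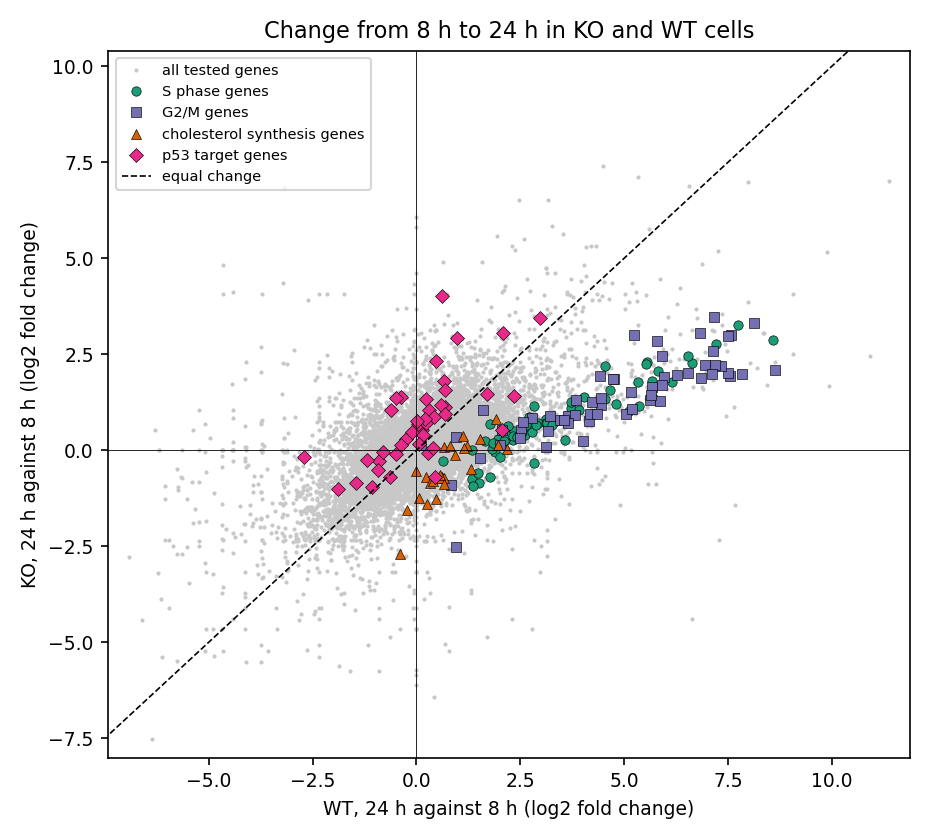
Log2 fold change from 8 h to 24 h in KO cells (vertical axis) against WT cells (horizontal axis), 1 point per tested gene, with 4 lists in colour and a dashed line of equal change. All 120 S phase and G2/M genes lie right of 0 and 119 lie below the line, with medians of 0.67 and 1.31 in KO cells and 2.86 and 4.74 in WT cells; the median of cholesterol genes is -0.66 in KO cells and 0.65 in WT cells.

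Promoters of 3 genes are printed because members of their lists moved together and differed between KO and WT cells. Each has the smallest p for the difference among list members that were eligible for printing and whose promoter holds the motif searched. Members were not eligible on every chromosome, so a member left out may have a smaller p. Promoters are those of the RefSeq table of GRCm38.p6 (250 bases before to 50 after the transcript start). Capitals mark TTTCCCGC, an E2F motif, in Hells (chr19:38930740-38931039, plus strand). In Kif23 (chr9:61946750-61947049, minus strand) they mark the CCAAT box as its reverse complement ATTGG, and the cell cycle homology region TTTGAA. In Hmgcs1 (chr13:119690101-119690400, plus strand) they mark the sterol element TCACNCCAC.
Hells: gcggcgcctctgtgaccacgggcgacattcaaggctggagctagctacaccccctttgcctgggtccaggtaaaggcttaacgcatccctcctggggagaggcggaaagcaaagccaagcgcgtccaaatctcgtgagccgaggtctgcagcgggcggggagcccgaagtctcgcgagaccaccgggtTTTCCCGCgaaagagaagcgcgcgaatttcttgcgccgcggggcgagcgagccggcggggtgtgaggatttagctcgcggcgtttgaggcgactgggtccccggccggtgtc
Kif23: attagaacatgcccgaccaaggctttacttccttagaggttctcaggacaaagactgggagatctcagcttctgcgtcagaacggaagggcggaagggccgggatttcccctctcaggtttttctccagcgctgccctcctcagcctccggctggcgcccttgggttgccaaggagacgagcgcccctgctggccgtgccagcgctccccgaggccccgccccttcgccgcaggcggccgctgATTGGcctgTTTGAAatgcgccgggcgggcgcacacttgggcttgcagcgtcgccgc
Hmgcs1: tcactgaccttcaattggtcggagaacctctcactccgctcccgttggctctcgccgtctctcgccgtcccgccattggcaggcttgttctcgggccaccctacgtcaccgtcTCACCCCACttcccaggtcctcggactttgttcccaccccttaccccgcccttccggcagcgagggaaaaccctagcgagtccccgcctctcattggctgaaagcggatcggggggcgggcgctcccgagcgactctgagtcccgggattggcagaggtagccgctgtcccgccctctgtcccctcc
Hells is a chromatin helicase of dividing cells, Kif23 a kinesin of cytokinesis and Hmgcs1 an early enzyme of the sterol pathway. Hells had 23.2 and 22.8 CPM in KO cells at 24 h and 8.64 and 9.55 CPM at 8 h, against 356 and 321 CPM in WT cells at 24 h and 15.2 and 13.7 CPM at 8 h. Kif23 had 4.79 and 6.09 CPM in KO cells at 24 h and 4.69 and 4.58 CPM at 8 h, against 52.3 and 44.5 CPM in WT cells at 24 h and 2.76 and 3.22 CPM at 8 h, and its KO change of 0.23 ± 0.17 did not pass (edgeR adjusted p = 0.34). Hmgcs1 had 51.04 and 41.7 CPM in KO cells at 24 h and 71.4 and 79.4 CPM at 8 h, against 198 and 160.0 CPM in WT cells at 24 h and 118 and 116 CPM at 8 h. Hells and Kif23 thus reached lower levels in KO than in WT cells at 24 h, and Hmgcs1 was lower at 24 h than at 8 h in both KO libraries and higher in both WT libraries. Hmgcs1 did not pass without the 8 h library numbered 2 or the 24 h library numbered 2 (edgeR adjusted p between 0.0888 and 0.104) for its KO change. Relative to the transcript start the motifs begin at base -62 in Hells, at -7 and 3 in Kif23 and at -137 in Hmgcs1. Of the 60 G2/M genes 51 were in the table, with 53 promoters. Of these, 32 (60.4%) held both a CCAAT box and a cell cycle homology region on some strand, as did 7.0% of all 32851 promoters. Among the 13321 promoters of tested genes 5.0% did. An E2F motif (TTTCCCGC or TTTGGCGC) stood in 1.6% and the sterol element in 1.2% of all promoters. In those of tested genes the shares were 2.8% and 1.2%. Of the matched promoters of the S phase list 15 of 54 (27.8%) held an E2F motif. Of those of the cholesterol list 1 of 20 (5.0%), that of Hmgcs1, held the sterol element, so the printed sequence is not typical of the list. Both shares are void as checks, since 76.7% and 68.0% of these genes were in the table, under a limit of 80%. Tested genes, with 66.7% in the table, were under it too.

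Most targets of p53 rose in KO cells. Of 42 tested 24 rose and 4 fell, with a median of 0.698, and in WT cells 15 rose and 13 fell. The difference KO minus WT was positive for 19 and negative for 3, and the first count was between 12 and 18 with each KO or WT library left out. Psrc1, a microtubule-binding target, had 517 and 500.3 CPM in KO cells at 24 h, against 151 and 139 CPM at 8 h (1.81 ± 0.13, edgeR adjusted p = 2.1e-07). Cd80, a costimulatory ligand on this list, had 32.7 and 22.4 CPM in KO cells at 24 h, against 4.29 and 2.93 CPM at 8 h (2.93 ± 0.26, edgeR adjusted p = 1.6e-06). Pidd1, which assembles a caspase-activating complex, and Ercc5, a nuclease of excision repair, also rose (log2 changes between 1.18 and 1.46). Btg2, Fbxw7, Ddb2 and Aen fell (log2 changes between -0.28 and -0.86). Aen did not pass without the 8 h library numbered 1, the 24 h library numbered 1 or the 24 h library numbered 2 (edgeR adjusted p between 0.056 and 0.205). The best known targets, Cdkn1a and Mdm2, were added after their values were seen. Cdkn1a had 1220 and 1061 CPM in KO cells at 24 h and 474 and 399 CPM at 8 h, against 56.7 and 87.6 CPM in WT cells at 24 h and 88.05 and 97.8 CPM at 8 h. It rose in KO cells (1.39 ± 0.29, edgeR adjusted p = 0.0086) and its change of -0.36 in WT cells did not pass (edgeR adjusted p = 0.38), with a difference of 1.75 ± 0.42 (edgeR adjusted p = 0.031). Cdkn1a did not pass without the 8 h library numbered 2 or the 24 h library numbered 1 (edgeR adjusted p between 0.0673 and 0.072) for its KO change, nor by DESeq2 (adjusted p = 0.0882). The difference did not pass without any 1 of 7 of the 8 libraries (edgeR adjusted p between 0.081 and 0.131), by DESeq2 (adjusted p = 0.175) or without the filter on low counts (edgeR adjusted p = 0.105). Mdm2, which degrades p53, had 275 and 249.9 CPM in KO cells at 24 h, against 167 and 159 CPM at 8 h (0.69 ± 0.09, edgeR adjusted p = 4.6e-05). Without the 3 KO libraries numbered 2, 15 targets rose.

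Death and survival genes moved in both directions. Of 24 pro-apoptotic genes 9 (37.5%) rose and 4 (16.7%) fell, and of 14 anti-apoptotic genes 6 (42.9%) rose and 4 (28.6%) fell. Over all tested genes 18.9% rose and 15.6% fell. Fas, a death receptor, had 132 and 112 CPM in KO cells at 24 h and 48.6 and 47.1 CPM at 8 h, against 18.1 and 22.1 CPM in WT cells at 24 h and 24.9 and 32.2 CPM at 8 h. It rose in KO cells (1.35 ± 0.13, edgeR adjusted p = 2.9e-06) and fell in WT cells (-0.502, edgeR adjusted p = 0.0085). Its ligand Fasl fell in both (-2.05 in KO cells and -2.05 in WT cells). Bad and Bak1, which promote death, rose (log2 changes between 0.72 and 1.64), while Bid, Ripk3 and Cycs fell (log2 changes between -0.48 and -0.698). Cycs did not pass without the 8 h library numbered 1 (edgeR adjusted p = 0.0548). Pim2, a survival kinase, had 603 and 617 CPM in KO cells at 24 h, against 63.8 and 73.8 CPM at 8 h (3.15 ± 0.11, edgeR adjusted p = 8.9e-10). Bcl2l1, Bcl2l2 and Birc2, which protect cells, rose (log2 changes between 1.01 and 1.48). Birc3, Cflar and the near-identical Bcl2a1b and Bcl2a1d fell (log2 changes between -0.35 and -1.77). Birc3 did not pass without the 8 h library numbered 2, the 24 h library numbered 1 or the 24 h library numbered 2 (edgeR adjusted p between 0.0547 and 0.0926), and Cflar did not pass without the 24 h library numbered 2 (edgeR adjusted p = 0.057). In that last setting 2 anti-apoptotic genes fell.

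Most sterol synthesis genes fell in KO cells. Of 25 tested 14 fell and 1 rose, with a median of -0.66, whereas 18 rose in WT cells. The difference was negative for 23. Cyp51, which demethylates lanosterol, had 64.3 and 63.2 CPM in KO cells at 24 h and 143 and 162 CPM at 8 h, against 305 and 263 CPM in WT cells at 24 h and 203 and 206 CPM at 8 h. Its change was -1.26 ± 0.15, edgeR adjusted p = 6.9e-05, in KO cells and 0.48 in WT cells (edgeR adjusted p = 0.024). Insig1, which holds the sterol sensor in the endoplasmic reticulum, had 38.02 and 35.6 CPM in KO cells at 24 h, against 94.1 and 101 CPM at 8 h (-1.41 ± 0.17, edgeR adjusted p = 5.9e-05). Hsd17b7 and Sqle, enzymes of the later steps, also fell (log2 changes between -0.85 and -1.25). Mvd, a decarboxylase of the mevalonate steps, was the member that rose (0.804 ± 0.15), less than in WT cells (1.91; edgeR adjusted p = 0.0032 for the difference). Without the 3 KO libraries numbered 2, 9 fell, and Cyp51 did not pass (edgeR adjusted p = 0.0514).

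Other metabolic lists held members of both directions. Of 29 glycolysis genes 7 rose and 10 fell, and the difference from WT was negative for 16. Aldoa, an aldolase, had 399.9 and 408 CPM in KO cells at 24 h, against 731 and 609.7 CPM at 8 h (-0.73 ± 0.10, edgeR adjusted p = 9.4e-05). Slc16a3, a lactate exporter, fell in KO cells (-1.09 ± 0.18) and rose in WT cells (0.73), while Ldhb, a lactate dehydrogenase, rose in KO cells (1.39 ± 0.14). Of 15 fatty acid genes 3 rose and 4 fell. Fasn, the fatty acid synthase, fell (-0.89 ± 0.11), and Scd2, a desaturase, rose by 2.13 in KO cells and by 4.68 in WT cells (edgeR adjusted p = 5.5e-05 for the difference). Of 32 one-carbon and nucleotide genes 7 rose and 11 fell. Shmt1, a serine hydroxymethyltransferase, had 78.3 and 80.1 CPM in KO cells at 24 h, against 225 and 193 CPM at 8 h (-1.399 ± 0.09, edgeR adjusted p = 1.6e-07), and Phgdh, the entry to serine synthesis, rose (0.83 ± 0.12). Nuclear-encoded oxidative phosphorylation genes and mitochondrial ribosomal proteins had median changes of 0.016 and 0.031, near the 0.02 of all tested genes. The share that rose was near the 18.9% of all tested genes in the former and below it in the latter. Of 75 nuclear-encoded oxidative phosphorylation genes 15 rose and 1 fell. Of 77 mitochondrial ribosomal proteins 10 rose and 4 fell, and of 12 mitochondrially encoded genes 3 fell. Without the 8 h library numbered 2, 8 of the oxidative phosphorylation genes and 5 of the mitochondrial ribosomal proteins rose, and 11 and 5 of the last 2 lists fell. Without either 24 h library 8 oxidative phosphorylation genes rose, and without either of these or the 8 h library numbered 1 at most 2 mitochondrial ribosomal proteins fell. In the same 3 settings 6 or 7 one-carbon genes fell. Without the 3 KO libraries numbered 1, 6 glycolysis genes fell.

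Stress lists split. Of 40 genes of the ATF4 and amino acid response 22 rose and 3 fell, with a median of 0.61, and the difference from WT was positive for 12. That count was 7 without the KO 24 h library numbered 1 and 7 without the WT 8 h library numbered 1. Ddit3, a stress transcription factor, had 56.3 and 56.4 CPM in KO cells at 24 h and 26.7 and 25.9 CPM at 8 h, against 8.46 and 8.98 CPM in WT cells at 24 h and 18.8 and 20.3 CPM at 8 h. It rose in KO cells (1.097 ± 0.11, edgeR adjusted p = 5.0e-06) and fell in WT cells (-1.16, edgeR adjusted p = 3.0e-06). Sesn2, which senses leucine, had 187 and 182 CPM in KO cells at 24 h, against 63.1 and 60.3 CPM at 8 h (1.58 ± 0.16, edgeR adjusted p = 1.3e-05). Slc1a4, an amino acid transporter, and Pck2, the mitochondrial phosphoenolpyruvate carboxykinase, also rose (log2 changes between 1.38 and 1.503), and Slc1a5, a glutamine transporter, fell (-1.37 ± 0.10). Of 23 genes of the unfolded protein response 2 rose and 13 fell, with a median of -0.49. The chaperones Pdia6, Dnajb11, Hsp90b1 and Calr of the endoplasmic reticulum fell (log2 changes between -0.68 and -0.96), and Edem1, which sends misfolded proteins to degradation, rose (0.95 ± 0.10). Of 22 heat shock genes 1 rose, Hsf2, and 5 fell, a number of 2 or 3 without the 8 h library numbered 1 or either 24 h library. Of 37 proteasome subunits 4 rose, the immune members Psmb8, Psmb9 and Psmb10 and the activator Psme2, and 12 fell. That last count was 3 without the 8 h library numbered 1, 21 without that numbered 2, 7 without the 24 h library numbered 1 and 4 without that numbered 2. Psmb10 did not pass without the 8 h library numbered 1 or the 24 h library numbered 2 (edgeR adjusted p between 0.278 and 0.314).

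Most ribosome assembly factors fell and most cytosolic ribosomal proteins rose. Of 93 biogenesis factors 2 rose and 52 fell, with a median of -0.34 in KO cells and -0.35 in WT cells, where 55 fell. The difference passed for 1 upwards and 1 downwards. Rrp1b, a nucleolar factor, had 153 and 151 CPM in KO cells at 24 h, against 281 and 241 CPM at 8 h (-0.78 ± 0.10, edgeR adjusted p = 3.8e-05), and Polr1e, a subunit of RNA polymerase I, fell as well (-0.72 ± 0.10). Without the 24 h library numbered 2, 30 factors fell, and without the 8 h library numbered 1, 32. Of 81 cytosolic ribosomal proteins 48 rose, with a median of 0.37, and none passed in the other direction by edgeR, by DESeq2 or at an unadjusted p under 0.05 (0 genes each). In WT cells 2 rose and 4 fell. Rplp0, of the ribosomal stalk, had 5968 and 5809 CPM in KO cells at 24 h and 3597 and 3031 CPM at 8 h, against 3471 and 3940 CPM in WT cells at 24 h and 3281 and 3207 CPM at 8 h. The difference from WT was positive for 15, a count between 1 and 49 with each KO or WT library left out. The count of 48 rested on single libraries too. It was 12 without the 8 h library numbered 2, 14 without the 24 h library numbered 1 and 31 without that numbered 2. It was 29 with the 4 KO libraries fitted alone and 22 with all 6. Ribosomal protein genes have processed copies that can share reads. Of 50 other DEAD-box and DEAH-box helicases 1 rose, Ddx19b, and 20 fell, among them Ddx51 and Ddx10 of ribosome assembly (-0.67 and -0.61). Without the 24 h library numbered 2, 11 of them fell, and without the 8 h library numbered 1, 13. Of 14 snoRNA host genes 1 rose, Zfas1, and 3 fell, or 1 without the 8 h library numbered 1.

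**Figure D3:**
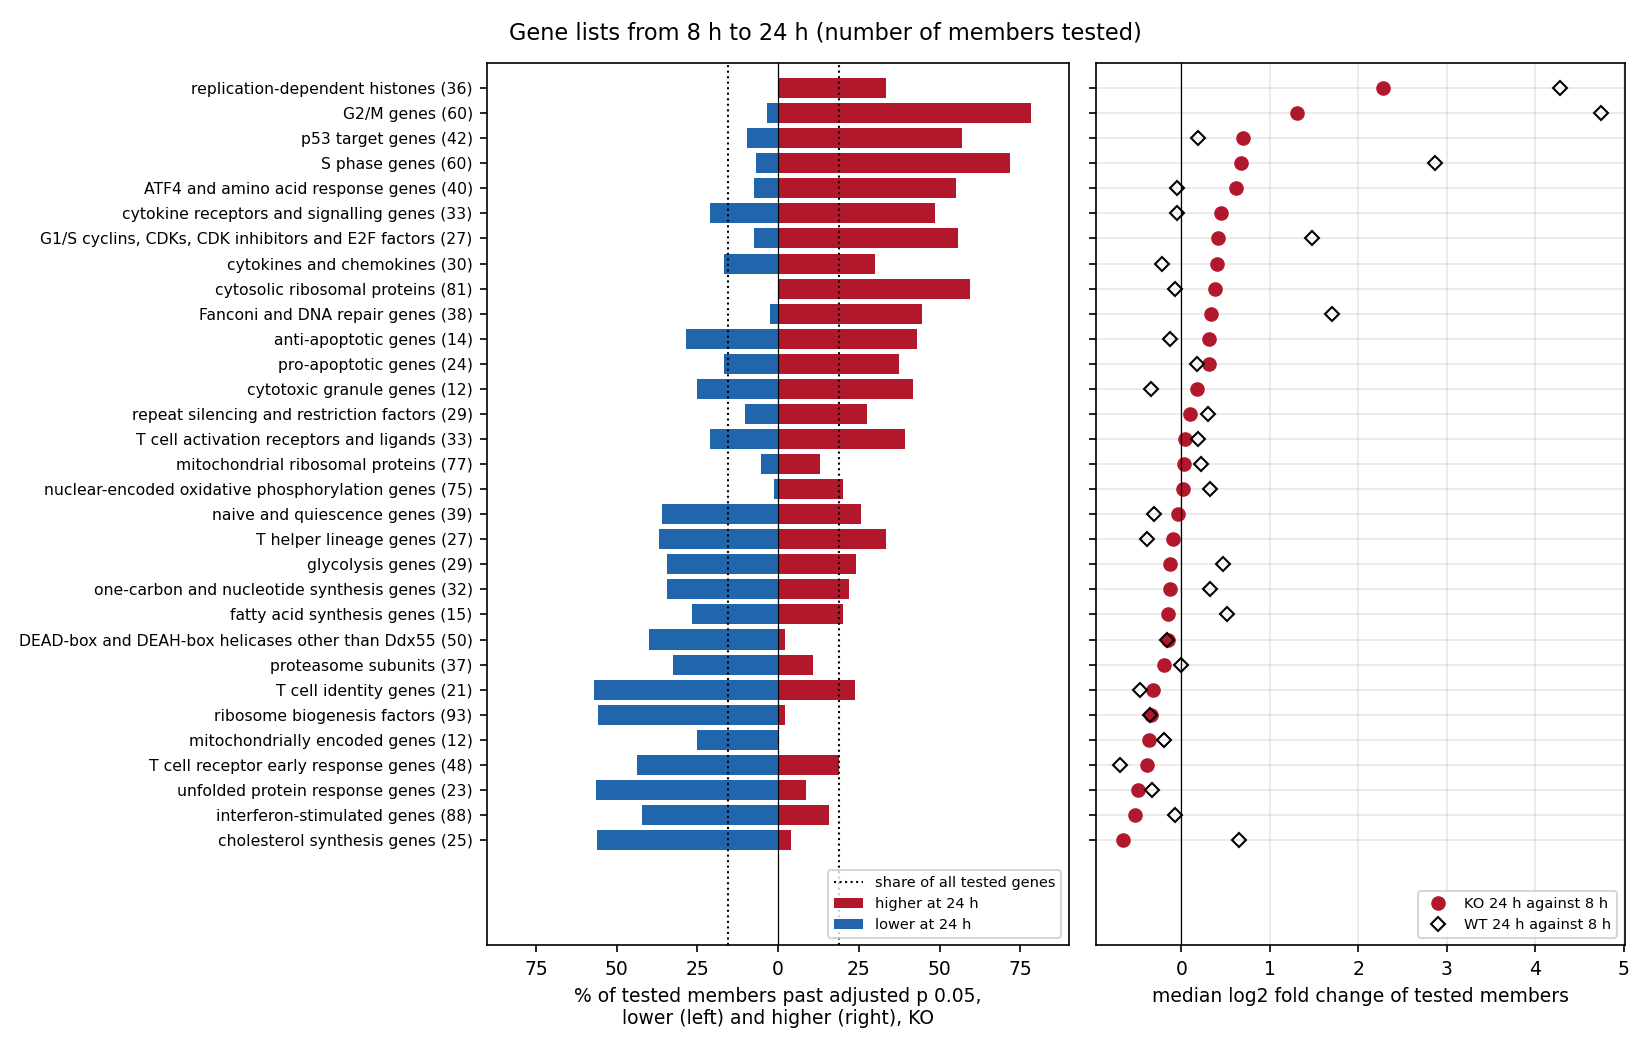
Left panel, share of tested members that fell (left of 0) and rose (right of 0) past the threshold in KO cells from 8 h to 24 h, with the number tested in brackets; dotted lines mark the shares of all tested genes, 15.6% and 18.9%. Right panel, median log2 fold change of the same members in KO cells (filled circles) and WT cells (open diamonds); the lists run from histones (2.28 in KO cells) to cholesterol synthesis (-0.66 in KO cells).

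**Figure D4:**
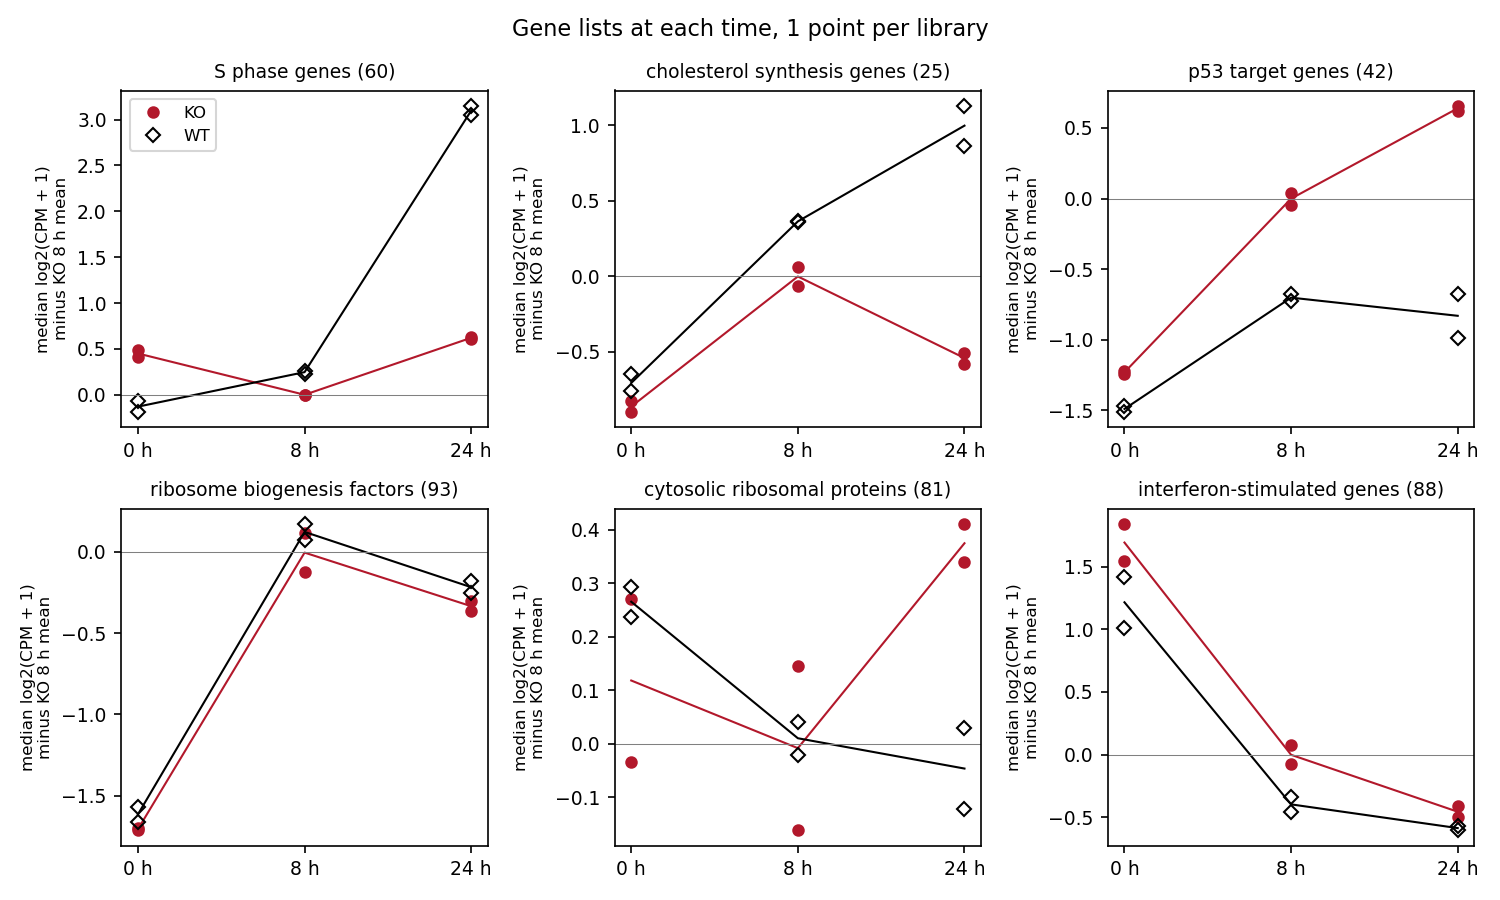
Median over list members of log2(CPM + 1) minus the mean of the KO 8 h libraries (vertical axis) at 0 h, 8 h and 24 h for 6 lists, 1 point per library with lines through the means; filled circles are KO and open diamonds WT. At 24 h S phase genes stand at 0.61 and 0.63 in KO cells, against 3.15 and 3.05 in WT cells, and p53 targets at 0.66 and 0.62 in KO cells, against -0.98 and -0.68 in WT cells; ribosomal proteins at 8 h stand at 0.15 and -0.16 in KO cells, against 0.04 and -0.02 in WT cells.

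More genes of the early response to the antigen receptor fell than rose. Of 48 such genes 9 (18.8%) rose and 21 (43.8%) fell, with a median of -0.39 in KO cells and -0.69 in WT cells. The share that rose was near the 18.9% of all tested genes, of which 15.6% fell. Egr2, an immediate early factor, had 161 and 178 CPM in KO cells at 24 h, against 494 and 478 CPM at 8 h (-1.52 ± 0.09, edgeR adjusted p = 6.7e-08). Spry1, a feedback inhibitor, and the transcription factors Fosl2 and Nfatc1 also fell (log2 changes between -0.99 and -1.81). Nfkb2, a subunit of NF-kB, had 1187 and 955 CPM in KO cells at 24 h and 644 and 575 CPM at 8 h, against 419.8 and 429 CPM in WT cells at 24 h and 591 and 585 CPM at 8 h. It rose in KO cells (0.81 ± 0.11) and fell in WT cells (-0.47; edgeR adjusted p = 7.0e-05 for the difference). Ikzf4, an Ikaros family factor, rose (1.87 ± 0.11). With the 4 KO libraries fitted alone, 15 of these genes rose.

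Of 33 activation receptors and ligands 13 rose and 7 fell. Cd44, the hyaluronan receptor of activated cells, had 287 and 273 CPM in KO cells at 24 h and 44.4 and 55.5 CPM at 8 h, against 114 and 103 CPM in WT cells at 24 h and 37.8 and 38.97 CPM at 8 h (KO change 2.49 ± 0.11, edgeR adjusted p = 2.9e-09). Il2rb, a chain of the interleukin-2 receptor, Cd200 and Tnfrsf18 also rose (log2 changes between 1.24 and 1.45), whereas Cd274, Tnfrsf9, Pdcd1 and Cd160 fell (log2 changes between -1.13 and -1.96). Of 30 cytokines and chemokines 9 rose and 5 fell. Il2, the T cell growth factor, had 201 and 132 CPM in KO cells at 24 h and 62.05 and 49.9 CPM at 8 h, against 169.9 and 184 CPM in WT cells at 24 h and 57.6 and 55.7 CPM at 8 h. It rose by 1.57 in KO cells and by 1.65 in WT cells, and the difference of -0.07 ± 0.24 did not pass (edgeR adjusted p = 0.88). Osm and Lif, of the interleukin-6 family, and Csf2, with 39 counts at 8 h, rose (log2 changes between 1.03 and 2.03), while Tnf fell (-1.04 ± 0.12). Csf2 did not pass without the 8 h library numbered 1 or the 24 h library numbered 1 (edgeR adjusted p between 0.0511 and 0.15). The number of cytokines and chemokines that rose was 4 without the 8 h library numbered 2, 4 without the 24 h library numbered 1 and 5 without that numbered 2. Of 33 cytokine receptors and signalling genes 16 rose and 7 fell. Stat5a, which carries the interleukin-2 signal, had 776 and 719 CPM in KO cells at 24 h and 227 and 222 CPM at 8 h, against 252 and 242 CPM in WT cells at 24 h and 203 and 203 CPM at 8 h; the difference was 1.45 ± 0.12 (edgeR adjusted p = 1.5e-06). Il12rb1 and Stat3 also rose (log2 changes between 0.85 and 1.86), and Il7r, the interleukin-7 receptor, fell (-1.59 ± 0.12).

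Genes of naive cells, migration and lineage moved in both directions. Of 39 naive and quiescence genes 10 rose and 14 fell, or 9 without the 3 KO libraries numbered 2. Ccr7, the lymph node homing receptor, had 2217 and 1570 CPM in KO cells at 24 h and 483 and 443 CPM at 8 h, against 536 and 592 CPM in WT cells at 24 h and 604 and 619.6 CPM at 8 h. It rose in KO cells (2.03 ± 0.14, edgeR adjusted p = 1.8e-07), the WT change of -0.12 did not pass (edgeR adjusted p = 0.54), and the difference did (edgeR adjusted p = 4.7e-06). S1pr1, a receptor for lymph node exit, fell (-1.698 ± 0.19). Of 29 homing receptors and integrins 8 rose, among them Icam1 (1.44 ± 0.10) and Selplg (1.22 ± 0.11), and 6 fell, among them Cxcr3 (-1.63 ± 0.26). Of 27 T helper lineage genes 9 rose and 10 fell. Tbx21, the Th1 factor, had 72.6 and 69.98 CPM in KO cells at 24 h, against 21.6 and 23.2 CPM at 8 h (1.67 ± 0.17, edgeR adjusted p = 1.1e-05). Foxp3, the factor of regulatory T cells, had 10.9 and 13.96 CPM in KO cells at 24 h, against 3.95 and 3.92 CPM at 8 h (1.66 ± 0.19, edgeR adjusted p = 1.9e-05). Runx1 and Tox fell (log2 changes between -1.21 and -1.32). Of 21 T cell identity genes 5 rose, Cd4 and Bcl11b among them (0.89 and 1.35), and 12 fell, Cd27, Zap70, Lcp2 and Trac among them (between -0.97 and -1.68). Of 12 cytotoxic granule genes 5 rose and 3 fell. Gzmb, a granule protease, had 178 and 104 CPM in KO cells at 24 h, against 35.4 and 25.2 CPM at 8 h (2.22 ± 0.34, edgeR adjusted p = 0.0017), and Srgn, the granule proteoglycan, fell (-1.58 ± 0.10). The 17 markers of CD8 T and NK cells summed to 265.1 and 202.4 CPM in KO cells at 24 h, against 409.2 and 278.7 CPM at 8 h. In WT cells they summed to at most 55.3 CPM at 24 h, and to 240.6 and 184.7 CPM at 8 h. At each time every KO library thus lay above every WT library. The chemokine gene Xcl1, 1 of these markers, made up most of the 8 h sums. It had 306.97 and 191.2 CPM in KO cells at 8 h and 68.36 and 58.71 CPM at 24 h. In WT cells it had 196.2 and 142.4 CPM at 8 h and 10.88 and 10.99 CPM at 24 h. The rest of the KO sums was higher at 24 h than at 8 h. The median change of the 17 markers was nevertheless -1.25 in KO cells and -1.62 in WT cells. In KO cells 2 markers rose, Eomes and Nkg7, and 5 fell, or fewer without the 8 h library numbered 1 or either 24 h library. The part of CD8 T and NK cells in the granule genes was not tested.

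More interferon-stimulated genes fell than rose in KO cells. Of 88 tested 14 rose and 37 fell in KO cells, with a median of -0.53, and 20 rose and 26 fell in WT cells, with a median of -0.07. The difference was negative for 13 and positive for 1. Oas2, a sensor of double-stranded RNA, had 1.47 and 2.86 CPM in KO cells at 24 h, against 12.1 and 9.55 CPM at 8 h (-2.32 ± 0.25, edgeR adjusted p = 3.1e-05), and 224 and 259.5 CPM at 0 h. Xaf1 and Gbp8 also fell (log2 changes between -1.19 and -1.47). Gbp5, a guanylate-binding protein, had 308 and 270.4 CPM in KO cells at 24 h, against 65.7 and 82.4 CPM at 8 h (1.97 ± 0.13, edgeR adjusted p = 1.9e-07), and Tap1, the peptide transporter of antigen presentation, rose with it (1.16 ± 0.11). Without the 3 KO libraries numbered 1, 23 fell. The 13 negative differences became 8 without the KO 24 h library numbered 1 and 8 without the WT 8 h library numbered 1.

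Gene by gene, 3550 genes were called in the same direction in both genotypes, 65.8% of the KO calls and 52.3% of the WT calls. Another 185 were called in opposite directions, 75 up in KO and down in WT and 110 down in KO and up in WT. Each of the 185 passed the test of the difference, which calls in opposite directions from the same fit made nearly certain. Of 1662 genes called in KO cells and not in WT cells 436 passed it, and of 3048 called in WT cells and not in KO cells 951 did. Dnm1, a dynamin, had 7.08 and 6.79 CPM in KO cells at 24 h and 0.226 and 0.221 CPM at 8 h, against 0.9698 and 0.9201 CPM in WT cells at 24 h and 0.331 and 0.879 CPM at 8 h. Wnt3, a secreted ligand, had 28.1 and 18.8 CPM in KO cells at 24 h and 2.94 and 2.32 CPM at 8 h, against 1.19 and 0.866 CPM in WT cells at 24 h and 0.937 and 1.17 CPM at 8 h. Both were low in all WT libraries. Il1r2, the decoy receptor of interleukin-1, rose by 1.69 in KO cells and fell in WT cells (-1.39, edgeR adjusted p = 0.014). Cacnb3, a calcium channel subunit, had 109 and 61.6 CPM in KO cells at 24 h and 9.65 and 8.004 CPM at 8 h, against 7.65 and 6.12 CPM in WT cells at 24 h and 5.62 and 4.63 CPM at 8 h, so that the KO 24 h libraries stood apart from all others.

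Most of the remaining marker lists held few called members, but 4 of 10 regulatory T cell markers and 2 of 4 gamma delta T cell genes rose. Of all tested genes 18.9% rose and 15.6% fell. The markers that rose were Cd79b among 13 of B cells, Il4 among 16 of basophils and mast cells and Car1 among 13 of erythroid cells and platelets. Sox13 and Trgv2 of gamma delta T cells, and Tnfrsf18, Foxp3, Gpr83 and Ctla4 of regulatory T cells, also rose. The markers that fell were Itgax among 14 of myeloid cells, Kit among the 16 of basophils and mast cells and Pecam1 among 8 of stroma and endothelium. Cd79b, Il4, Ctla4 and Trgv2 lost the call without any 1 of the 4 libraries (edgeR adjusted p between 0.067 and 0.226). Sox13 did not pass without the 8 h library numbered 1, the 8 h library numbered 2 or the 24 h library numbered 2 (edgeR adjusted p between 0.0977 and 0.201), Kit did not pass without the 8 h library numbered 2 or the 24 h library numbered 1 (edgeR adjusted p between 0.187 and 0.194), Pecam1 did not pass without the 8 h library numbered 2 or the 24 h library numbered 1 (edgeR adjusted p between 0.216 and 0.309), and Itgax did not pass without the 24 h library numbered 2 (edgeR adjusted p = 0.0629). Of 16 tested markers of neutrophils and granulocyte progenitors and 7 of eosinophils, 0 passed in either direction by edgeR. At an unadjusted p under 0.05, and by DESeq2, 1 neutrophil marker was lower at 24 h and 0 eosinophil markers changed. No read was counted in these 4 libraries for Cd209a of myeloid cells, for Fcnb, Ly6g and Retnlg of neutrophils, or for Ccl19 and Ccl21a of stroma. Of 13 genes beside Ddx55 on chromosome 5, 2 (15.4%) rose and 4 (30.8%) fell, beside 18.9% and 15.6% of all tested genes. Fewer of the 13 fell without the 24 h library numbered 2. Of 29 factors that silence or restrict repeats 8 rose, among them Apobec3, a restriction factor (1.598 ± 0.09), and 3 fell, among them Morc2a (-0.46 ± 0.09). Without the 24 h library numbered 2, 1 of these fell.

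Repeats were counted per locus. Elements of the 4 classes LINE, SINE, LTR and DNA had 68460 and 76152 counts for each 1e6 gene counts in KO cells at 24 h, against 72400 and 89199 at 8 h. The groups overlapped (ratio 0.895; two-sided exact permutation p = 0.667, where 0.333 is the smallest possible). In WT cells the values were 62987 and 60318 at 24 h, against 74595 and 80929 at 8 h. Of 1180 subfamilies 83 (7.03%) changed in KO cells, 18 (1.53%) up and 65 (5.51%) down. In WT cells 269 (22.8%) changed. The difference passed for 10 (0.847%), positive for 0.0847% and negative for 0.763%. ERVK elements of the LTR class made up 36 of the 65 that fell, with 411 tested. Of 31 young L1Md subfamilies 2 rose, with a median of 0.22 in KO cells and -0.30 in WT cells. The median over all subfamilies was -0.15 in KO cells.

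In 8 of the 10 named subfamilies at least 65.1% of the counts came from 1 locus inside a gene. ERVB2_1-I_MM~RLTR13D2, an LTR element with 2 counted loci, had 5.01 and 7.92 CPM in KO cells at 24 h, against 53.9 and 68.1 CPM at 8 h (-3.24 ± 0.26, edgeR adjusted p = 1.3e-05). Of its counts 80.0% lay at chr1:173566173-173572495, in an exon of Ifi213, the gene described above. IAPEY3_LTR~IAPEy-int, with 91.6% of its counts at the neighbouring locus of that gene, had 2.29 and 3.72 CPM in KO cells at 24 h, against 16.99 and 30.97 CPM at 8 h. ERVB7_1-LTR_MM~MMETn-int had 39.7 and 37.3 CPM in KO cells at 24 h and 16.7 and 13.2 CPM at 8 h, against 250.3 and 213 CPM in WT cells at 24 h and 27.9 and 25.9 CPM at 8 h. It rose (1.36 ± 0.15), with 89.5% of its counts at an exonic locus of Wiz, a gene that itself fell (-0.38 ± 0.09). MMTV-int~RLTR3_Mm rose (1.17 ± 0.20), with 94.4% of its counts in an exon of Coro2a, and changed by -0.43 at loci outside exons. MuRRS4-int rose (1.06 ± 0.23), with 65.1% of its counts in an exon of Gbp5. Arthur1B and Lx2A1, whose leading loci are intronic, rose by 1.47 and 1.05. IAPEY4_I-int~RLTR46B, ERVB2_1-I_MM~RLTR13C2 and ETnERV2-int~RLTR13C2 fell (-2.47, -2.49 and -2.21), and the first changed by 0.64 outside exons. Outside exons ERVB7_1-LTR_MM~MMETn-int, IAPEY3_LTR~IAPEy-int and MuRRS4-int did not pass either (edgeR adjusted p of 0.765, 0.543 and 0.127). IAPEY3_LTR~IAPEy-int did not pass without the 8 h library numbered 2, the 24 h library numbered 1 or the 24 h library numbered 2 (edgeR adjusted p between 0.123 and 0.185). MuRRS4-int did not pass without the 8 h library numbered 1, the 24 h library numbered 1 or the 24 h library numbered 2 (edgeR adjusted p between 0.0579 and 0.105). Lx2A1 did not pass without the 8 h library numbered 1 or the 24 h library numbered 2 (edgeR adjusted p between 0.0602 and 0.198), and ETnERV2-int~RLTR13C2 did not pass without the 24 h library numbered 1 (edgeR adjusted p = 0.065).

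**Figure D5:**
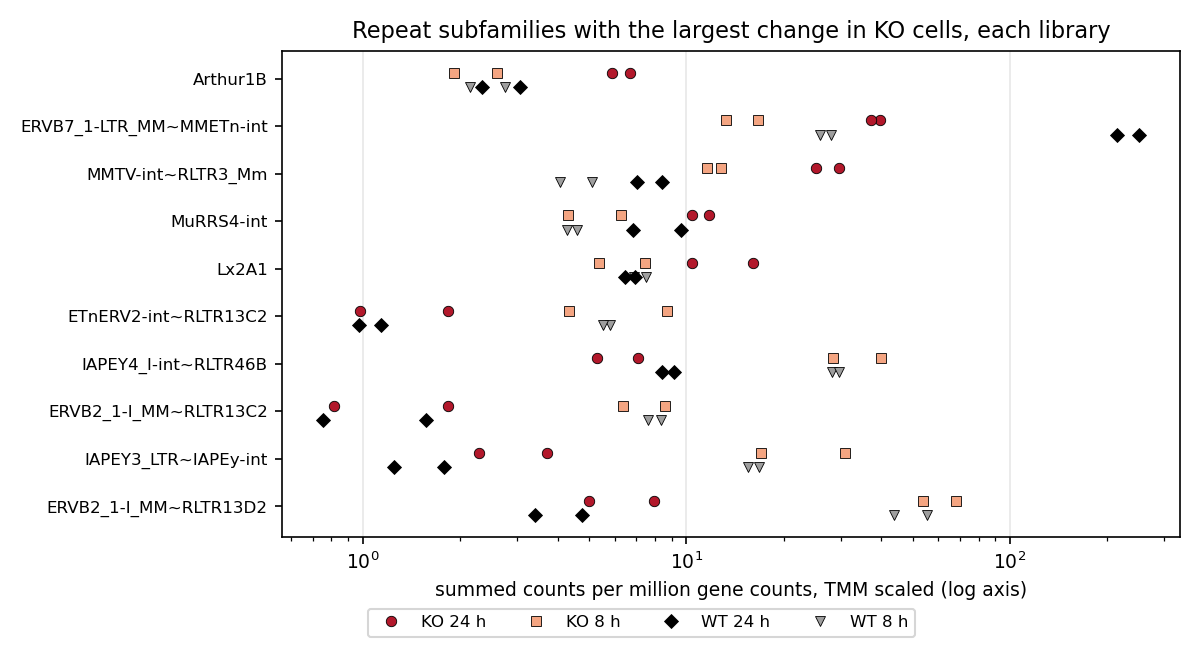
Summed counts in CPM of gene counts (TMM scaled, log axis) of the 10 named repeat subfamilies, 1 point per library; circles are KO at 24 h, squares KO at 8 h, diamonds WT at 24 h and triangles WT at 8 h. KO points of the 2 times do not overlap in any line; ERVB7_1-LTR_MM~MMETn-int stands at 39.7 and 37.3 in KO cells at 24 h, against 250.3 and 213 in WT cells at 24 h.

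Of 37251 single loci 1762 (4.73%) changed in KO cells, 433 (1.16%) up and 1329 (3.57%) down. In WT cells 9.42% changed, and the difference passed for 0.440%, positive for 0.153% and negative for 0.287%. Each of 1449 called loci inside genes was compared with the overlapping tested gene of most counts. Where that gene was called, 1208 loci (83.4% of the 1449) changed in its direction and 17 in the opposite one. For 224 it was not called, or no tested gene overlapped. An Lx3B element of the L1 family in an intron of Clec2g (chr6:128943891-128944961) had 8.33 and 6.63 CPM in KO cells at 24 h and 0.169 and 0.055 CPM at 8 h, against 0.054 and 0.379 CPM in WT cells at 24 h and 0.055 and 0.117 CPM at 8 h. MMETn-int~RLTRETN_Mm, an LTR element in another intronic stretch of that gene, had 6.43 and 5.71 CPM in KO cells at 24 h, against 0 and 0.221 CPM at 8 h. For neither the Lx3B nor the MMETn-int~RLTRETN_Mm locus did the difference KO minus WT pass (edgeR adjusted p = 0.202 and 0.315). The intergenic Lx3_Mus element at chr4:63934343-63935047, 24738 bases from the nearest tested gene, Tnc, had 21.8 and 11.8 CPM in KO cells at 24 h and 0.565 and 0.276 CPM at 8 h, against 3.93 and 2.71 CPM in WT cells at 24 h and 0.992 and 0.645 CPM at 8 h. Its KO change was 5.302 ± 0.38 (edgeR adjusted p = 4.9e-14). The named loci that fell were an ORR1F element 36643 bases from Ankrd46, an L1MdA_VI element 15196 bases from Cdyl2 and a B1_Mur4 element in an exon of Ipcef1, with at most 0.163 CPM in either KO library at 24 h. Coordinates are those of the deposited table, on mm10.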

How the data were processed

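Total RNA had its ribosomal part removed and was read from stranded paired-end libraries, per the labels. The submitters' processing notes list fastp 0.12.4 and STAR 2.7.1a, with mm10 as the build. The authors deposited whole-number counts without normalization, in a table of genes and a table of repeat loci. The counter, its use of strand and of unique molecular tags, and its handling of multiply mapped reads were not stated, so overlapping genes may share reads.

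Of 54232 genes 54165 were found in GENCODE vM21. The edgeR 4.0.16 filter in R 4.3.3 (count of 10, total of 15) left 15679. A robust quasi-likelihood fit with TMM factors had 6 group means and 6 residual degrees of freedom. The contrasts tested were KO 24 h against 8 h, WT 24 h against 8 h, and their difference, two-sided at a Benjamini-Hochberg adjusted p of 0.05. Repeat fits took the gene table's library sizes. The fit was also run on simulated counts with independent libraries and the spread it had estimated, which is no check of the calls made here. The libraries of each group differed by more than sampling noise.

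The members and the 45 lists were chosen with earlier results of these data known. Named are Ddx55; 15 genes per direction with the largest change among calls whose higher group averaged 5 CPM or more, without overlap of libraries; 8 per direction for the difference; up to 4 members per list and direction by p; 5 subfamilies (mean count of 100 or more) and 3 loci (50 or more) per direction. Predicted genes and clones were skipped, 3 among the rises, 7 among the falls and 2 among the positive differences. Alternatives were RLE factors, DESeq2 1.42.0, other filters and library sizes, subsets of libraries and a replicate block.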

Additional observations from a re-analysis of the deposited data

Results flagged for a closer look

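The late change differed between KO and WT cells, by a test of the difference itself in the edgeR fit, for 16 named genes and 10 repeat subfamilies. Values are log2 differences, KO minus WT. The difference was positive for Dnm1 (4.26), Adm (4.03), the glutamate receptor subunit Gria3 (3.46), the adenylate kinase Ak1 (3.39), Wnt3 (3.19), Il1r2 (3.08), the transcription factor Zbtb46 (3.004) and Cacnb3 (2.84). Gria3 had 8.55 and 10.5 CPM in KO cells at 24 h and 0.847 and 1.601 CPM at 8 h, against 0.323 and 0.595 CPM in WT cells at 24 h and 0.607 and 0.703 CPM at 8 h. Zbtb46 had 16.02 and 13.3 CPM in KO cells at 24 h and 2.88 and 4.14 CPM at 8 h, against 1.78 and 0.974 CPM in WT cells at 24 h and 3.42 and 1.88 CPM at 8 h. In both genes the KO 24 h libraries were the highest of these 8.

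The difference was negative for the histone gene Hist1h3c (-8.47), Pimreg (-8.27), the kinesins Kif14 (-6.75) and Kif4 (-6.53), the DNA glycosylase Neil3 (-6.55), the atypical E2F factor E2f8 (-6.07), the kinetochore protein Cenpf (-5.85) and Clspn (-5.72). Hist1h3c and Pimreg had no count in either WT library at 8 h, so their values depend on the prior count of the fit and are no bound. Kif4 had 2.94 and 6.15 CPM in KO cells at 24 h and 0.847 and 1.27 CPM at 8 h, against 49.3 and 45.7 CPM in WT cells at 24 h and 0.1103 and 0.117 CPM at 8 h.

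Of the subfamilies MuLV-int (-2.73), MMERVK9E_I-int~RLTR9E (-2.596), MTB-int (-2.11), LTR41B (-2.07), SRV_MM-int (-1.898), ERVB7_1-LTR_MM~MMETn-int (-1.74), RLTR41C~RLTR6-int (-1.72), RLTR6-int (-1.24) and MMERGLN-int (-1.08) had a negative difference, and ERVB4_1-I_MM (1.44) a positive one. The leading loci of LTR41B and MTB-int lie in exons of Dhcr7, of cholesterol synthesis, and Hmmr, of mitosis. The causes of these differences were not tested.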

How the results depend on the processing

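Against 5397 genes called in KO cells, the other tools, filters and library sets gave 4348 (the 6 KO libraries alone) to 6042 (replicate block). DESeq2 called 4979, of which 4728 were shared, and RLE factors called 2727 up and 2728 down. Leaving out each library gave 3653 to 4468 (2100 to 2356 up, 1542 to 2112 down), and for the difference 1427 to 2092 (468 to 801 positive) beside 2265. Of 265 named genes 217 kept their call in KO cells under every setting and none reversed, as did 10 of 16 for the difference. Leaving out 1 library ended the latter call for Adm in 6 of 8 libraries (0.0689 to 0.419), Ak1 in 7 of 8 libraries (0.0506 to 0.421), Pimreg in 5 of 8 libraries (0.0528 to 0.117), E2f8 in 2 of 8 libraries (0.0502 to 0.063) and Hist1h3c without the KO 8 h library numbered 1 (edgeR adjusted p of 1). The settings without the 3 KO libraries of 1 number, chosen after seeing the data, gave 3939 and 4394 genes. S phase, G2/M and ATF4 counts of risen genes moved by less than 1.5 times under all settings.

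The labels do not say what a replicate number marks. Deviations of same-numbered libraries correlated over genes at 0.222 between KO at 24 h and 8 h, 0.111 between 24 h and 0 h and 0.288 between 8 h and 0 h. In WT cells the values were 0.106, 0.09 and 0.22. With 2 numbers per genotype and no label, the libraries were treated as sharing only a number. With the replicate block Mcpt8 passed in KO cells (0.805, edgeR adjusted p = 0.0103), and the difference of Cdkn1a did not (1.77, edgeR adjusted p = 0.07). The block gave 2967 genes for the difference, 263 subfamilies in KO cells (61 up, 202 down) and 111 for the difference.

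The 83 subfamilies became 125 (54 up) with library sizes of the repeat table, 30 (9 up, 21 down) outside exons, 83 (53 up, 30 down) outside genes, and 23 to 99 (4 to 17 up, 12 to 94 down) with each library left out. The 10 for the difference became 33, 6 outside exons, 16 without a filter and 6 to 21 with each library left out. The 1762 loci became 692 to 1353 (198 to 296 up, 494 to 1142 down). MMTV-int~RLTR3_Mm turned to -0.43 and IAPEY4_I-int~RLTR46B to 0.64, each outside exons and outside genes, where few of their counts lie. The uncalled difference of Il2 ranged from -0.41 to 0.21 and the uncalled KO change of Mcpt8 from -0.47 to 2.04 with each library left out, turning sign in 2 settings and 1 setting. Without the KO libraries numbered 2 Il2 had 0.046. With 2 libraries per group, genes of few counts at 8 h are the least certain.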
